A study of Homo sapiens with 6 samples.

Results

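The clustered histone genes are the 60 protein-coding rows of the count table whose gene symbols name a linker histone (H1), a core histone of the gene clusters (H2A, H2B, H3 or H4) or H4-16, out of 30327 rows in all. They were chosen by symbol and gene type, without use of their levels, though earlier results of these data were known. The 60 members hold 7 H1, 14 H2A, 16 H2B, 9 H3 and 14 H4 genes. Of these, 49 lie on chromosome 6, between 26020451 and 27893891 of GRCh38, and 8 on chromosome 1. H1-10 on chromosome 3 and H4-16 on chromosome 12 are among the 3 that lie elsewhere. A further 9 rows with matching symbols were not protein-coding, mostly pseudogenes, and were not members.

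All 6 libraries came from SK-BR-3, an established HER2-positive breast cancer cell line. In 3 of them (si_NC) the cells had received a control siRNA without a target, and in the other 3 (si_GRB2) an siRNA to GRB2, the adaptor protein that links receptor tyrosine kinases to RAS signalling. The groups share the cell line, and siRNA knockdown is transient and partial. The titles and genotype labels of the treated libraries speak of overexpression, and their descriptions of si_GRB2. GRB2 itself read 123.9, 129.5 and 125.7 CPM (counts per 1e6 reads, TMM-normalized) in si_NC and 27.8, 28.1 and 29.6 CPM in si_GRB2, with no overlap. This is a log2 fold change of −2.15 (standard error, SE, 0.04) with an adjusted p of 3.87e-15 in the edgeR quasi-likelihood test, so every direction here is that of libraries with less GRB2 mRNA. No source says whether the 3 libraries of a group came from separate cultures, so p-values measure the spread between these libraries. Library totals on genes ran from 24810378 to 28532480 reads, and no pair of libraries agreed to within sampling noise. ERBB2, KRT8, KRT18, KRT19 and EPCAM, which mark luminal epithelial cells and this line, stood at 137 CPM or more in both group means, while PTPRC, PECAM1, CD3E, DCN and COL3A1, which mark other cell types, had between 2 and 14 reads in all 6 libraries together. Of the 7 epithelial markers, CDH1 was near 0 with 9 reads, and GATA3 was low with 620 reads and a mean of 3.89 CPM. Of the 6 tested, 4 fell, 1, ERBB2, rose, and GATA3 was not called. The 8 markers of other cells summed to between 7.49 and 8.49 CPM in si_NC and between 6.04 and 6.72 CPM in si_GRB2. Of their 1134 reads in all, COL1A1 had 723, ACTA2 195 and CD68 181. Of the 3 tested, COL1A1 and CD68 were not called and ACTA2 was lower (log2 fold change −1.31, edgeR adjusted p = 0.00192). The part of either list in the histone values was not tested.

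Histones package DNA into nucleosomes, each a spool of H2A, H2B, H3 and H4 closed by a linker histone H1. The clustered genes are copied in bulk while DNA is replicated in S phase, and their mRNAs are unusual in ending in a conserved stem-loop, bound by SLBP, in place of a poly(A) tail. A few histone genes also make polyadenylated mRNA. The libraries were made with mRNA capture beads, which hold poly(A) RNA, so the values below are those of the polyadenylated or carried-over share of histone mRNA and not of the whole.

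The stem-loop, the mRNA end that a poly(A) library does not select, is shown for 5 members with the 16 bases of stem and loop in capitals and 5 bases on either side.
H2BC12: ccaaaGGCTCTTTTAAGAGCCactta
H2BC5: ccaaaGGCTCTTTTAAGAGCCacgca
H2BC21: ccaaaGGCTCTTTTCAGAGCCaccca
H1-2: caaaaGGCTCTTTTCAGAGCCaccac
H4C8: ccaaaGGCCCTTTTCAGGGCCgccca
The 5 stretches were read from GRCh38, at chr6:27146361-27146386 (minus strand) for H2BC12, chr6:26158582-26158607 (plus strand) for H2BC5, chr1:149886183-149886208 (minus strand) for H2BC21, chr6:26055739-26055764 (minus strand) for H1-2 and chr6:26285126-26285151 (minus strand) for H4C8. Of the 58 members matched in GENCODE 44 by the deposited identifier, 56 held such a stem-loop between 23 and 63 bases after the stop codon, and H1-10 was among those that did not. All 14 H4 members had the stem that starts GGCCC and none of the 42 others did. Annotated transcripts of 14 members ran more than 50 bases past the stem-loop, and 12 of those 14 had the poly(A) signal AATAAA in the last 40 bases of a transcript. Of the other 42 members with a stem-loop, 1 had that signal. H1-10 had it as well.

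Promoters differed between the classes as well. Sequences from 250 bases before to 50 bases after the annotated start were taken from RefSeq (GRCh38.p14) for 53 members and searched on both strands. The octamer ATTTGCAT, known as the site of the POU factor OCT1, was in 13 of 16 H2B and 9 of 13 H2A windows and in none of the H1, H3 and H4 windows, against 1.77% of 35116 promoters. CCAAT was in 16 of 16 H2B, 13 of 13 H2A, 7 of 7 H3 and 5 of 6 H1 windows and in 2 of 11 H4 windows, against 34.6% of all promoters. GTCCG, the core of the site of the H4 regulator HINFP, was in 10 of 11 H4 windows against 28.9% of all. The octamer (in capitals) of the 3 H2B members that were called higher and hold it is shown in the direction of each gene, since 4 of the 5 rises were H2B genes.
H2BC11: cttcaccttATTTGCATaagcgattc
H2BC12: cttcaccttATTTGCATgagaggtcc
H2BC21: ggagccctaATTTGCATaaggtggtt
They lie at chr6:27132826-27132851, chr6:27146888-27146913 and chr1:149886712-149886737, all on the minus strand, and the octamer starts 47, 46 and 46 bases before the annotated start. H2BC5, the member with the largest rise, had no exact octamer in its window.

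Most members were scarce in these libraries. The 60 members together had 80390 reads in the 6 libraries, 86.9% of them on 6 genes, and 37 members had fewer than 100 reads each. On the deposited scale per kilobase (FPKM), which allows genes to be compared, H2BC12 had the highest mean at 101 FPKM. H1-2 had 51.9, H1-10 26.4, H2BC5 17.2 and H2AC6 13.6 FPKM. In all, 6 members had a mean of at least 10 FPKM, and 41 of the 60 had a mean under 1 FPKM. The highest H4 and H3 members were H4C8 at 3.98 and H3C10 at 3.84 FPKM. The lengths implied by the deposited FPKM and counts were worked out only for the 28 members of higher FPKM. They were a median of 1.23 times the GENCODE 44 exon length. These lengths rest on library totals on genes, and the total behind the authors' FPKM is not given. The median itself was therefore not read as a sign of longer models. For H3C8, H2AC11, H2BC9, H4C5, H4C9 and H2BC8 the implied lengths were between 3.84 and 5.98 times. For these 6 the authors' gene models were thus longer than those used here for the stem-loop. Whether their reads lie within the histone transcript was not tested. Members of lower FPKM were not examined in this way.

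In si_GRB2, 5 members rose and 4 fell. H2BC5, H4C8, H2BC11, H2BC21 and H2BC12 were higher, and H1-10, H3C8 and H1-2 were among the lower. Of the 5 rises, 4 were H2B genes, and 3 of the 4 falls were linker histones. In bulk RNA, fewer cells that express a gene and less RNA per cell cannot be told apart. Of the 60 members, 33 had enough reads for the test. At an adjusted p under 0.05, 9 of the 33 were called, or 27.3%, against 30.6% of the 15801 genes tested. The 5 rises were 15.2% of the tested members, against 15.2% of all genes tested, and the 4 falls were 12.1%, against 15.5%. The share of members called was thus near the background in both directions. The same 9 members were those with an unadjusted p under 0.05. Among the 33, 14 had groups that did not overlap, 42.4%, against 42.3% of all genes tested. Past a fold change of 1.5 with an adjusted p under 0.01 were 2 members, H2BC5 and H4C8, against 2.52% of all genes tested. The fold limit is that of the study, whose methods set 0.01 for a p value without naming an adjustment. Leaving out replicate 1 of si_NC or replicate 2 of si_GRB2 brought this count to 1, and leaving out replicate 1 of si_GRB2 brought it to 3. The 5 rises became 3 when replicate 2 of either group was left out. The median log2 fold change of the 33 members was 0.08, with 19 above 0 and 14 below, beside 0.00191 over all genes tested. Without si_GRB2 replicate 3 the members' median was −0.04, so its sign rests on that library.

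**Figure D1:**
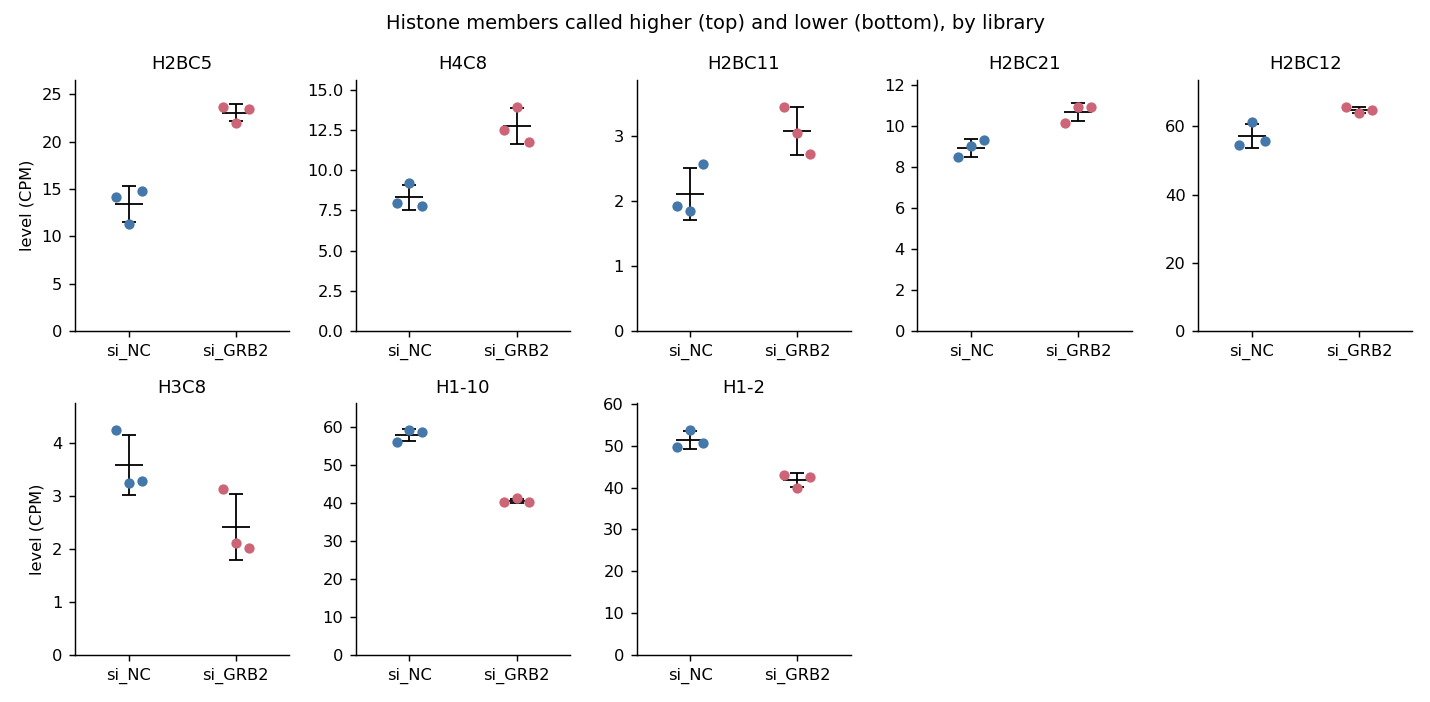
Levels of 8 called members in each library, in CPM on axes that start at 0, with points for the 3 si_NC and 3 si_GRB2 libraries and bars for the mean and SD. No member's groups overlap, and H2BC5 shows the widest separation among the rises, from 11.3 to 14.8 CPM in si_NC and from 22 to 23.7 CPM in si_GRB2.

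H2BC5 (ENSG00000158373.8), an H2B gene at 26158122 to 26171349 on the plus strand of chromosome 6, read 14.2, 11.3 and 14.8 CPM with si_NC and 23.7, 22 and 23.5 CPM with si_GRB2. The lowest si_GRB2 library was above the highest si_NC library. The means were 13.4 ± 1.88 and 23.0 ± 0.918 CPM (SD, n = 3), and the log2 fold change reached 0.77 (SE 0.08, edgeR adjusted p = 2.24e-06). This was the largest rise of any tested member, and the call was kept under all 14 other settings, with log2 fold changes from 0.66 to 0.84. One annotated transcript of H2BC5 ends 12747 bases past the stem-loop.

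H4C8 (ENSG00000158406.6), an H4 gene at 26277609 to 26285638 on the minus strand of chromosome 6, read 7.99, 9.22 and 7.77 CPM in si_NC and 12.5, 13.9 and 11.7 CPM in si_GRB2. Both groups kept to a narrow range with no overlap. The log2 fold change was 0.62 (SE 0.09, edgeR adjusted p = 1.07e-04), and it was called under all 14 other settings. Annotated transcripts reach 7522 bases past its stem-loop, and 6.85% of its windows of 150 bases were also present in another gene's transcript. An unnamed gene, ENSG00000289447, is annotated over it on the other strand, and no source says whether the counting used strand.

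H2BC12 (ENSG00000197903.8), at 27146361 to 27146855 on the minus strand of chromosome 6, was the most abundant member per kilobase. It had 54.7, 61.2 and 55.6 CPM in si_NC and 65.8, 63.8 and 64.9 CPM in si_GRB2. The groups did not overlap, and the log2 fold change was small at 0.18 (SE 0.04, edgeR adjusted p = 0.00496), called under all 14 other settings. Unlike the other 4 rises, its only GENCODE 44 transcript ends 5 bases past the stem-loop.

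H2BC11 (ENSG00000124635.9), at 27125897 to 27132795 on the minus strand of chromosome 6, was low, with 1.93, 1.84 and 2.57 CPM in si_NC and 3.46, 3.06 and 2.73 CPM in si_GRB2. The si_NC library at 2.57 and the si_GRB2 library at 2.73 nearly met. Its log2 fold change was 0.54 (SE 0.18, edgeR adjusted p = 0.0301). The call was lost on leaving out replicate 1 (adjusted p = 0.0946) or 2 (0.126) of si_NC, replicate 1 (0.118) or 2 (0.0723) of si_GRB2, and in DESeq2 (0.0869).

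H2BC21 (ENSG00000184678.10), at 149884459 to 149886682 on the minus strand of chromosome 1, had 8.49, 9.06 and 9.34 CPM in si_NC and 10.2, 11 and 10.9 CPM in si_GRB2. Again no libraries overlapped, and the log2 fold change was 0.26 (SE 0.08, edgeR adjusted p = 0.0305). This call was lost on leaving out replicate 1 (adjusted p = 0.117) or 2 (0.0732) of si_NC, replicate 2 (0.107) or 3 (0.0928) of si_GRB2, and under DESeq2 (0.110), limma on log2(FPKM + 1) (0.0503) and no filter on low counts (0.0609).

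The linker histones include the members with the firmest falls. H1-10 (ENSG00000184897.6), a linker histone outside the clusters at 129314771 to 129316286 on the minus strand of chromosome 3, had 56.1, 59.1 and 58.6 CPM in si_NC and 40.1, 41.2 and 40.2 CPM in si_GRB2. The 3 libraries of each group lay close together and far from the other group. Its log2 fold change was −0.52 (SE 0.04, edgeR adjusted p = 9.40e-08). H1-10-AS1, a noncoding RNA annotated over it on the other strand, had 5.85, 4.47 and 5.10 CPM in si_NC and 3.46, 3.46 and 3.75 CPM in si_GRB2, with a log2 fold change of −0.53 (SE 0.14, edgeR adjusted p = 0.0073). It held 8.86% as many reads as H1-10, and without the strand setting reads of the pair cannot be told apart.

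H1-2 (ENSG00000187837.4), at 26055740 to 26056470 on the minus strand of chromosome 6, is the one linker histone of the cluster with a high level, at 49.8, 53.7 and 50.6 CPM in si_NC and 43.1, 39.8 and 42.5 CPM in si_GRB2. It fell by 0.30 on the log2 scale (SE 0.05, edgeR adjusted p = 1.11e-04), with no overlap between groups. H1-10 and H1-2 kept their call under each of the 14 other settings. H1-3, H1-4 and H1-5, also tested, had under 1 CPM in every group mean and log2 fold changes of −0.02, 0.38 and 0.28 with standard errors from 0.36 to 0.42, too wide to show a change of the size seen in H1-2.

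H3C8 (ENSG00000273983.1), an H3 gene at 26270918 to 26271413 on the minus strand of chromosome 6, was the one core histone gene called lower, with 4.24, 3.26 and 3.28 CPM in si_NC and 3.14, 2.11 and 2.01 CPM in si_GRB2. Its highest si_GRB2 library was just under its lowest si_NC library. The log2 fold change was −0.57 (SE 0.19, edgeR adjusted p = 0.0284). Its call did not hold without replicate 1 of si_NC (adjusted p = 0.117), without replicate 2 (0.122) or 3 (0.130) of si_GRB2, under DESeq2 (0.0607) and under limma on log2(FPKM + 0.1) (0.0622) or log2(FPKM + 1) (0.0590). H3C8 is among the 6 members whose deposited FPKM imply a longer gene model.

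**Figure D2:**
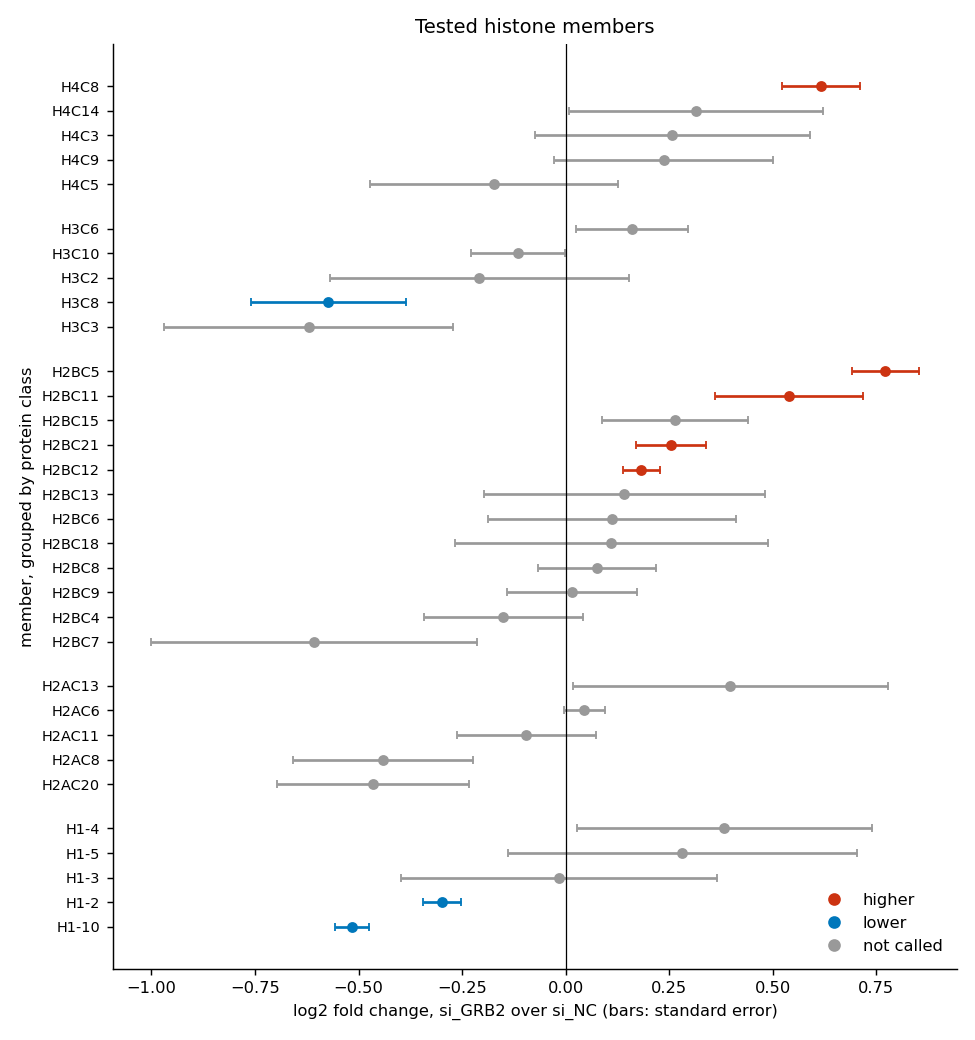
Log2 fold change of 32 tested members, si_GRB2 over si_NC, with bars of one standard error, grouped by class and coloured by the call at an adjusted p under 0.05. Members range from −0.62 (H3C3) to 0.77 (H2BC5), and the bars widen for members with few reads.

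By class, the counts of calls differed in direction, though each class is small and no test of the difference between classes was made. Of the H2B genes, 4 of 12 tested rose, or 33.3% against 15.2% of all genes tested. None of them fell, and their median log2 fold change was 0.13. Of the H1 genes, none of 6 rose and 3 fell, or 50% against 15.5% of all genes tested, with a median of −0.14. No H2A gene of 5 tested was called, 1 of 5 H3 genes fell (20%), and 1 of 5 H4 genes rose (20%). H2AC6, the most abundant H2A gene, had 27.6, 28.1 and 26.1 CPM in si_NC and 27.3, 28.8 and 28.4 CPM in si_GRB2, which overlap, and a log2 fold change of 0.05 (SE 0.05, edgeR adjusted p = 0.551). H3C10, the highest H3 gene per kilobase, had 5.85, 6.55 and 5.81 CPM in si_NC and 5.96, 5.28 and 5.57 CPM in si_GRB2, with a log2 fold change of −0.11 (SE 0.11, edgeR adjusted p = 0.502). A further 5 members had groups that did not overlap but were not called. H2BC15 was the one on the higher side at 0.26, and H2AC8 (−0.44), H2AC20 (−0.46), H3C3 (−0.62) and H2BC7 (−0.61) were on the lower side in log2 fold change, with adjusted p from 0.147 to 0.297 (edgeR). The 24 members tested and not called ranged from −0.62 to 0.40 in log2 fold change.

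Summed over a class, the levels followed the few abundant genes. The 5 H1 genes of the clusters came to 53.0 ± 2.09 CPM in si_NC and 43.6 ± 1.71 CPM in si_GRB2 (SD, n = 3), a ratio of 0.82. The H2B genes came to 95.5 ± 2.73 and 116 ± 1.95 CPM, a ratio of 1.22, and the H4 genes to 14.0 ± 1.36 and 18.8 ± 0.975 CPM, a ratio of 1.34. Within the H4 sums, H4C8 alone held 8.33 CPM in si_NC and 12.7 CPM in si_GRB2. The H2A genes were level at 34.1 ± 1.15 and 34.3 ± 1.27 CPM, and the H3 genes read 15.4 ± 0.446 and 13.8 ± 0.81 CPM, a ratio of 0.897. Scaled by library totals alone, the ratios were 0.85 for these H1 genes, 1.26 for H2B, 1.38 for H4, 0.93 for H3 and 1.04 for H2A.

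**Figure D3:**
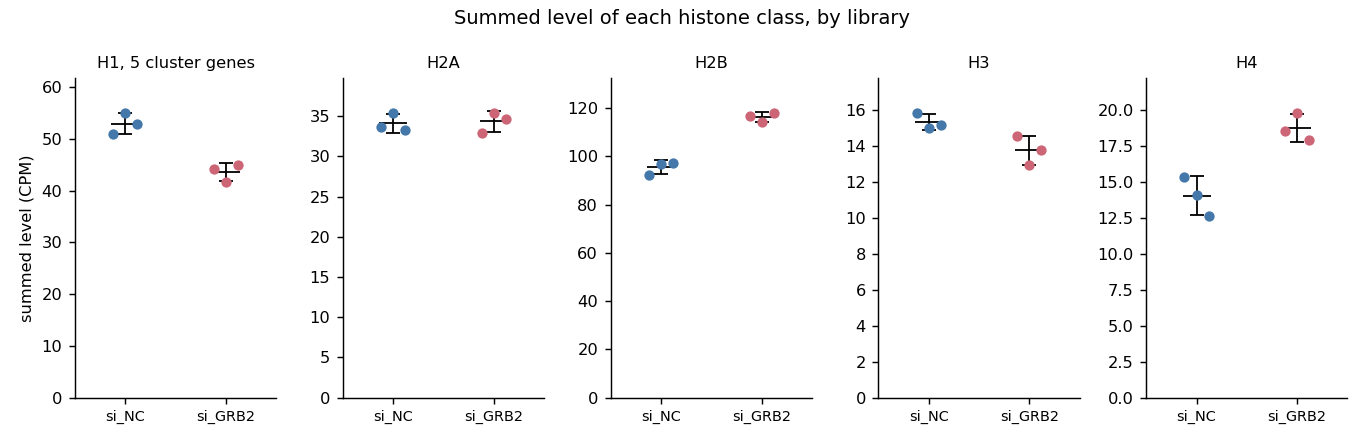
Summed level of each histone class in each library, in CPM on axes that start at 0, with points for libraries and bars for the mean and SD of 3. The 5 H1 genes of the clusters and the H3 genes are lower and the H2B and H4 genes higher in si_GRB2 with no overlap, while the H2A libraries of the groups overlap.

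The form of the annotated mRNA end gave another division of the members. Of the 14 members with a transcript running past the stem-loop, 12 were tested and 4 rose, or 33.3% against 15.2% of all genes tested. None of the 12 fell, against 15.5% of all genes tested, and their median log2 fold change was 0.21. Of the 42 whose transcripts end at the stem-loop, 19 were tested, of which 1 rose and 2 fell, with a median of −0.02. The former summed to 75.9 ± 0.886 CPM in si_NC and 94.0 ± 0.757 CPM in si_GRB2, a ratio of 1.24, which was 1.07 without H2BC5 and H4C8. The latter summed to 136 ± 5 and 133 ± 2.53 CPM, a ratio of 0.975 that became 1.01 when scaled by library totals. H1-10, which has no stem-loop, fell. These groups were formed from GENCODE 44 with the calls known, and the difference between them was not tested. The 42 include the 6 members whose deposited FPKM imply a longer gene model, H3C8 among them, and members of lower FPKM that were not examined for this. Their counted reads need not end at the stem-loop. H2BC4, among the 14, had an implied length of 1019 bases against 2881 in GENCODE 44, a ratio of 0.354 beside the median of 1.23.

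Divergent H2A and H2B genes that share 1 promoter are given side by side. The 26 bases around the octamer were the same stretch of DNA, read from opposite strands, in 6 pairs, of which 4 had both genes tested. H2BC11 rose by 0.54 while H2AC11 was at −0.10 (adjusted p = 0.728), and H2BC21 rose by 0.26 while H2AC20 was at −0.46 (adjusted p = 0.153) in log2 fold change (edgeR). In the pair of H2BC4 (−0.15) and H2AC6 (0.05) and that of H2BC8 (0.08) and H2AC8 (−0.44), neither gene was called. The difference within a pair was not tested. Among H2B genes, 3 of 9 tested with an octamer rose, and 1 of 3 without, against 15.2% of all genes tested.

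**Figure D4:**
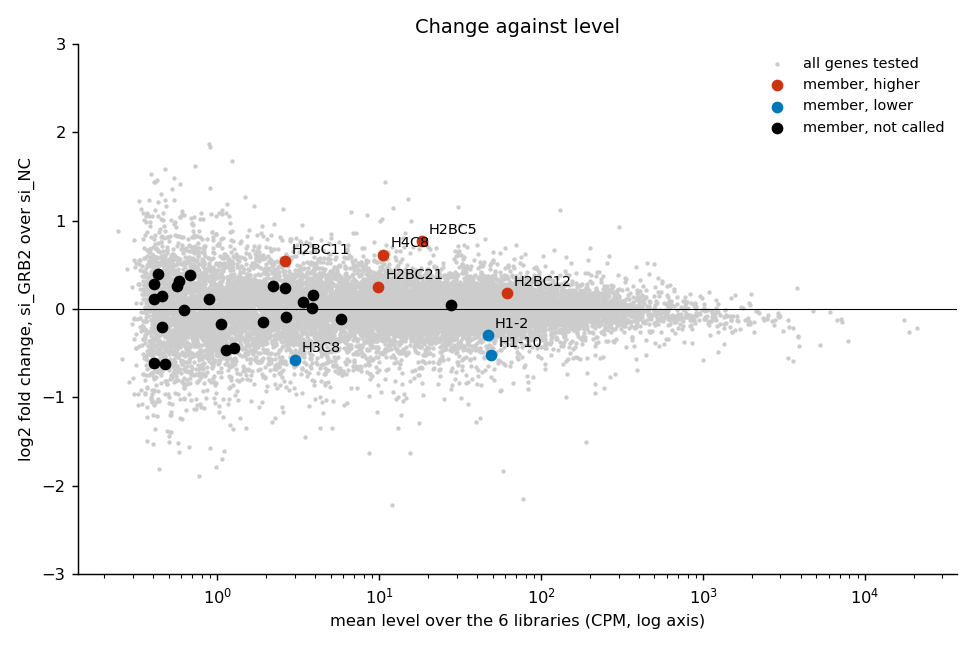
Log2 fold change against mean level in CPM (log axis) for the 15801 genes tested (grey) and 32 tested histone members, coloured by call. Uncalled members sit mostly at low levels, and 8 called members are labelled by name.

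Other histone genes, and the genes that act on histones and their mRNA, were read from fixed lists. Most replacement histones are made throughout the cell cycle from polyadenylated mRNA. The list read here is wider than that, and H2AX, one of its falls, is not wholly of this kind. Outside the rule, 10 of 18 listed genes were tested, of which 6 fell (60%, against 15.5% of all genes tested). Their median was −0.13, and 1, MACROH2A1, rose (log2 fold change 0.09, edgeR adjusted p = 0.0304). That rise was lost under both limma fits, without a filter on low counts, with a replicate block, and on leaving out replicate 1 or 2 of si_NC or of si_GRB2, when no replacement histone was called higher. H2AZ2, an H2A.Z gene, read 354 ± 1.17 CPM in si_NC and 294 ± 2.66 CPM in si_GRB2 (log2 fold change −0.27, adjusted p = 6.90e-07), and H2AZ1, the other H2A.Z gene, had a log2 fold change of −0.19 (adjusted p = 5.43e-05). H2AX, the variant phosphorylated at DNA breaks, fell by 0.26 on the log2 scale (adjusted p = 8.94e-05). H3-3A and CENPA, the centromere variant of H3, were not called, at 0.05 and −0.02 (edgeR throughout). Histone mRNA machinery covers transcription, cleavage and decay of histone mRNA. Of its 21 genes, all tested, 3 fell (14.3%, against 15.5% of all genes tested) and 1 rose (4.76%, against 15.2%), with a median of −0.03, so the shares called were near or under the background. SLBP, which binds the stem-loop shown above, read 59.4 ± 1.17 CPM in si_NC and 53.7 ± 0.69 CPM in si_GRB2, a log2 fold change of −0.15 (adjusted p = 0.00735). UPF1, which acts with SLBP in histone mRNA decay, was at −0.15 (adjusted p = 0.00714), CSTF2, a cleavage factor, at −0.21 (adjusted p = 0.019), and LSM10, of the U7 particle that cleaves after the stem-loop, at 0.15 (adjusted p = 0.0278). LSM10 lost its call on leaving out replicate 1 or 2 of si_NC or replicate 1 or 3 of si_GRB2, when no machinery gene was called higher. Scaled by library totals alone, none of the 21 was called lower and 3 were called higher. NPAT, the coactivator of clustered histone genes, was at −0.12 (adjusted p = 0.215).

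Histone chaperones, which carry histones to and from DNA, moved both ways. Of 20, all tested, 7 fell (35%, against 15.5% of all genes tested) and 5 rose (25%, against 15.2%), with a median log2 fold change of −0.00235. Under both limma fits, 4 fell and 1 rose. DNAJC9 fell by 0.36, DAXX by 0.34, ASF1B by 0.29 and HJURP by 0.23 on the log2 scale, with adjusted p of 1.80e-07, 1.05e-06, 1.49e-05 and 2.47e-04 (edgeR). The S phase list is relevant because clustered histone genes are copied in that phase. Of its 26 genes, all tested, 21 fell and none rose (0 higher also at an unadjusted p under 0.05 in edgeR, 0 in DESeq2, and 1 when scaled by library totals), with a median of −0.22 beside 0.08 for the histone members. The 21 falls were 80.8% of the list, against 15.5% of all genes tested, and became 10 and 11 under limma on log2(FPKM + 1) and log2(FPKM + 0.1). RRM2, the ribonucleotide reductase subunit, fell by 0.31, PCNA, the sliding clamp, by 0.31, CDC6 by 0.26 and MCM6, of the replicative helicase, by 0.28 on the log2 scale, with adjusted p from 3.39e-07 to 1.55e-05 (edgeR). E2F1, CCNE1, CCNE2 and TK1 were among those not called. Summed, the list came to 3893 ± 24.3 CPM in si_NC and 3391 ± 38.5 CPM in si_GRB2. Its part in the histone values was not tested.

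RNAs that have no poly(A) tail were read beside the histones as a measure of carry-over into the libraries. Their 18 rows summed to between 26.9 and 42.0 CPM in si_NC and between 33.1 and 45.6 CPM in si_GRB2, which overlap. None of the 5 tested was called in edgeR's fit without a block or in DESeq2, 2 were called higher with a replicate block and 2 without a filter on low counts, 2 had an unadjusted p under 0.05 (edgeR), 3 were called higher without replicate 3 of si_NC, and their median log2 fold change was 0.41. RMRP, RPPH1, SCARNA2, RN7SL1 and SNORD3A had log2 fold changes of 0.48, 0.44, 0.41, 0.15 and −0.11, with the lowest adjusted p at 0.0854 (edgeR). The part of such carry-over in the rises of H2B and H4 genes was not tested. The 40 members ending at the stem-loop other than H2BC12 and H1-2 summed to 27.3 ± 0.684 CPM in si_NC and 25.8 ± 1.22 CPM in si_GRB2. They include the 6 members whose deposited FPKM imply a longer gene model, and members of lower FPKM that were not examined for this. Of the 4244 reads in this sum, H2BC9 had 610, H2BC8 536 and H3C8 482. Whether such reads lie past the stem-loop was not tested.

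**Figure D5:**
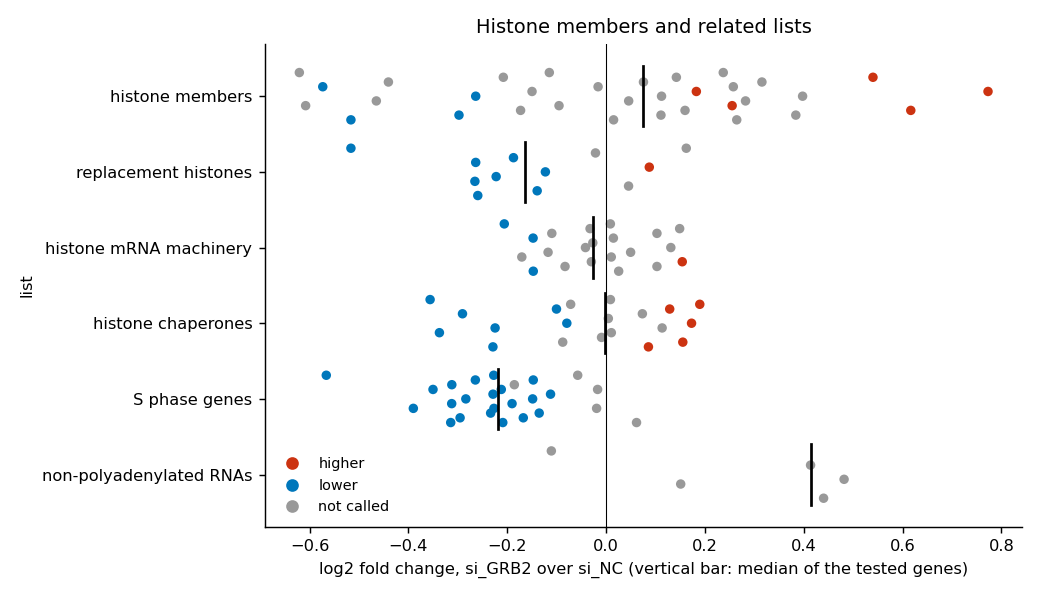
Log2 fold changes of tested genes in 6 lists, coloured by call, with the median of each as a vertical bar (points are spread vertically for sight only). The S phase genes lie almost all below 0, with a median of −0.22, while the histone members lie on both sides.

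Members with few reads could not be read for change. The 27 members not tested had between 1 and 54 reads each over the 6 libraries, 602 in all, and comprised 1 H1, 9 H2A, 4 H2B, 4 H3 and 9 H4 genes. They summed to 3.67 ± 0.861 CPM in si_NC and 3.86 ± 0.108 CPM in si_GRB2, so that no difference was detectable at this depth. Stretches copied exactly in other genes also limit the counts. Of the 58 members with a GENCODE 44 model, 7 had over 50% of their windows of 150 bases in another gene's transcript on either strand. That count also takes in genes annotated over the same stretch, such as H3C12 over H2AC17 at 58.3%. Uniquely mapped reads leave out stretches that are copied elsewhere. Among the tested members, those over 50% were H2AC13 at 52.9% and H4C14 at 92.2%, whose values are therefore uncertain. None of the 9 called members was above the 7.17% of H1-10, over which H1-10-AS1 is annotated. These shares count exact matches only, so copies that differ by a few bases are not in them.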

How the data were processed

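Libraries were made by the authors from bead-captured mRNA with strand-marking dUTP. The authors trimmed the reads with FASTX-Toolkit, aligned them with HISAT2 to GRCh38, kept uniquely mapped reads, and deposited the count of reads per gene, not normalized, and FPKM per gene, rounded. The counting tool, its strand setting and the annotation release are not given in the sources used here. Members and lists were chosen with earlier results of these data known.

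TMM factors came from edgeR 4.0.16 in R 4.3.3, and its filterByExpr left 15801 genes, on which glmQLFit with glmQLFTest compared 3 si_GRB2 with 3 si_NC libraries, without covariates. P-values were adjusted over those genes (Benjamini-Hochberg). The standard error is the log2 fold change divided by the square root of F. CPM are TMM-normalized. A called gene had an adjusted p under 0.05. Alternatives used DESeq2 1.42.0, limma 3.58.1 and other scalings, filters and library sets. Named are GRB2, SLBP, NPAT, called members, the highest member per class by FPKM, and the 4 genes of smallest p per list. H2AC11, H2AC20 and other members were named after their values were seen. Stem-loops (6-base stem, 4-base loop, within 150 bases after the stop), transcript ends and shared windows came from GENCODE 44 on GRCh38, and promoters from RefSeq. Python 3.11.15 made the tables and figures. The values of 2 genes are not reported here.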

Additional observations from a re-analysis of the deposited data

How the results depend on the processing

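H2BC5, H4C8, H2BC12, H1-10 and H1-2 kept direction and call under all 14 other settings, as did GRB2, and H2BC11, H2BC21 and H3C8 kept their direction but lost the call under 5, 7 and 6 of them. The count of members called higher, 5, was 3 under DESeq2 (which gave an adjusted p for 22 members), 3 at an adjusted p under 0.01, and from 3 to 5 with a library left out. The count called lower, 4, was 2 in a narrower set of 58 members, and from 3 to 4 with a library left out. The count past a fold change of 1.5 at an adjusted p under 0.01, 2, was 1 under limma on log2(FPKM + 1) and from 1 to 3 with a library left out. The members' median log2 fold change, 0.08, ranged from −0.039 to 0.14 with a library left out. Library totals without TMM moved the median of all genes by 0.05 and the higher share of all calls from 49.5% to 66.5%. It was 61.7% and 61.6% under limma with a pseudocount of 1 and 0.1. The replicate numbers did not pair the samples (correlations of 0.23, −0.09 and 0.08 between same-numbered libraries), and the fit with a replicate block called 9 of the same 9 members, with 2390 genes higher and 2417 lower over all. In the other lists, limma with a pseudocount of 1 and 0.1 called 10 and 11 S phase genes lower, 1 and 1 chaperones higher, 4 and 4 lower, 4 and 4 replacement histones lower and 0 and 0 higher, and 0 and 0 machinery genes lower. Library totals called 1 S phase gene, 3 machinery genes and 2 replacement histones higher, and 0 machinery genes lower. DESeq2 called 0 machinery genes higher. Without a filter and with the replicate block, 2 non-polyadenylated RNAs and 0 replacement histones were higher. With a library left out, from 0 to 2 machinery genes, 0 to 1 replacement histones and 0 to 3 non-polyadenylated RNAs were higher. The cause was not tested. Few reads limit 37 members.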
